A study of Mus musculus with 8 samples.

Results

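This is an account of 10 genes of tissue-resident type macrophages and of the complement component C1q in immature myeloid cells (IMCs). They are Folr2, Mrc1, Cd163, C1qa, C1qb, C1qc, Mertk, Axl, Trem2 and F13a1. The cells came from mice with conditional deletion of PARP1 or PARP2 and from their controls. The genes were chosen by symbol from the 24062 genes of the count table, in part because Folr2 differed from controls with both deletions, and all 10 were among the 13197 genes that passed the filter on low counts. PARP1 and PARP2 are enzymes that add ADP-ribose chains to proteins. The table held 8 total RNA libraries, 2 for each of 4 groups of C57BL/6 mice aged 2 months. PARP1 WT mice were PARP1 flox/flox, PARP1CKO mice were PARP1 flox/flox with lysozyme-Cre, PARP2 WT mice were PARP2 flox/flox, and PARP2CKO mice were PARP2 flox/flox with lysozyme-Cre. The WT mice were littermates without Cre, so Cre and deletion came together, and lysozyme-Cre acts in the myeloid lineage as a whole. All cells were bone marrow cells kept for 3 days in 40 ng/mL of M-CSF, the growth factor that drives marrow progenitors toward macrophages. The sources used here do not state whether the libraries of a group came from separate mice, so the tests measure the spread between libraries.

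Tissue macrophages clear dying cells and debris, and many of the genes described here serve that work. C1q, assembled from the A, B and C chains, binds immune complexes and apoptotic cells and starts the classical complement pathway, and macrophages make much of it. MERTK and AXL are receptor tyrosine kinases of the TAM family, which reach phosphatidylserine on dying cells through the bridging ligands GAS6 and protein S. FOLR2 (folate receptor beta), MRC1 (the mannose receptor, CD206) and CD163 (the receptor for haemoglobin bound to haptoglobin) are surface receptors often used to mark resident macrophages. TREM2 senses lipids and signals through TYROBP, and F13A1 is the catalytic subunit of the transglutaminase coagulation factor XIII.

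Library totals ran from 37852450 to 61845125 counts. Levels are given as CPM, a gene's count over the library total after scaling by trimmed mean of M values, per 1000000 counts. Parp1 averaged 61.2 CPM in the PARP1CKO libraries against 206 in their controls, and Parp2 averaged 25.7 CPM in the PARP2CKO libraries against 48.3, so each CKO library had less of its targeted transcript than either of its controls. The myeloid gene Itgam (CD11b) lay between 881 and 1035 CPM, and the macrophage genes Csf1r and Emr1 (F4/80, now Adgre1) lay between 1134 and 1273 CPM and between 495 and 630 CPM. Ly6c2, which encodes an antigen seen by the Gr1 antibody, lay between 53.9 and 72.2 CPM, Ly6c1 did not exceed 1.02 CPM, and Ly6g was not analysed here.

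The promoters of the genes that the results turn on are shown first, as the 250 bases upstream of the RefSeq start on GRCm38.p6, each read 5′ to 3′ on the strand of its gene. Folr2 is shown because it differed from controls with both deletions, Mertk and F13a1 because they differed most between the PARP2 and PARP1 mice, and C1qb because it had the highest level per length. The Folr2 window lies at chr7:101845332-101845581 on the minus strand, before the downstream of its 2 starts. The Mertk window lies at chr2:128698665-128698914 on the plus strand. The F13a1 window lies at chr13:37050245-37050494 on the minus strand, and the C1qb window at chr4:136886201-136886450 on the minus strand. Capitals mark matches, on either strand, to GAGGAA (an ETS core of the kind PU.1 binds), TGCTGA (a MAF core) or TGANTCA (an AP-1 site).
Folr2: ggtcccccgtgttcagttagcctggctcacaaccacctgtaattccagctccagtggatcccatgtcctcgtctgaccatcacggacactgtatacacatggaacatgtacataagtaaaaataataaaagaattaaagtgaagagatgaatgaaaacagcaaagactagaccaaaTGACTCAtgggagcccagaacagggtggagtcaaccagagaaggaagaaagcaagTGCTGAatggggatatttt
Mertk: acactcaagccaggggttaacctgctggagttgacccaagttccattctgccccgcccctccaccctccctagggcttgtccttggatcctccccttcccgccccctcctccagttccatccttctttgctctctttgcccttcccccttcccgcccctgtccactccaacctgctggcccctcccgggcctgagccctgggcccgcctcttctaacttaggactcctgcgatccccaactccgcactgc
F13a1: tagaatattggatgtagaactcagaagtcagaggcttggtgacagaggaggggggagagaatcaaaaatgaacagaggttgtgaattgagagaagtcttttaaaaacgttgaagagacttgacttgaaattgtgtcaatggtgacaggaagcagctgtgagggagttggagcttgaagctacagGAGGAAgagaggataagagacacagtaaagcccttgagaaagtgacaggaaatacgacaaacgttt
C1qb: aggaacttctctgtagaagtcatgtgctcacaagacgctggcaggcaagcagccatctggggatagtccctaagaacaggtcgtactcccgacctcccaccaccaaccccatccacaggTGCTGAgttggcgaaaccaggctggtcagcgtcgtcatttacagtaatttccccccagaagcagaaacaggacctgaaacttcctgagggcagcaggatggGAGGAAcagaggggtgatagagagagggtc

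RefSeq windows were found for 9 of the 10 genes, at 11 starts in all. GAGGAA was present in 6 of the 11 windows and in 23.3% of 32851 mouse promoter windows of the same length. TGCTGA was present in 3 of the 11 and in 16.1% of all windows, and TGANTCA in 2 of the 11 and in 6.75%. The Folr2 window holds TGCTGA with its first base 19 bases upstream of the start and TGANTCA at 74 bases, and the upstream start of Folr2 has TGCTGA at 220 bases. F13a1 holds GAGGAA at 66 bases, and C1qb holds GAGGAA at 30 and TGCTGA at 131 bases. The Mertk window holds none of the 3 letter strings.

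The levels of the 10 genes spanned a wide range. Divided by the merged exon length of GENCODE M21, which may not be the annotation the counts were made on, the mean level over the 8 libraries was 377 CPM per kb for C1qb. Mrc1 (104 CPM per kb), C1qc (93.8) and Trem2 (81.3) followed, and the ranges over libraries of neighbours among these 3 overlapped. C1qa (38.5 CPM per kb) was lower than Trem2 in every library, and its range overlapped that of Folr2 (22.5). F13a1 (15.1 CPM per kb), Mertk (12.4) and Axl (8.45) came next, each with a range that overlapped its neighbour's. Cd163 was lowest by far, at 0.388 CPM per kb. With the longest transcript in place of merged exons, C1qc (151 CPM per kb) lay above Mrc1 (123) and the other ranks did not move.

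Folr2 (chr7:101839988-101857194, minus strand) gave 30.5 and 26.8 CPM in the PARP1 WT libraries against 45.6 and 43.8 in the PARP1CKO libraries. For PARP2 the controls gave 24.4 and 29.8 CPM and the PARP2CKO libraries 42.7 and 35.2. Every CKO library was above every WT library, and the WT groups overlapped each other. The difference was 0.64 on the log2 scale (1.56-fold) with PARP1 deletion, between 0.55 and 0.74 when any 1 of its 4 libraries was left out. With PARP2 deletion it was 0.53 (1.44-fold), between 0.38 and 0.68. These values helped choose the genes, so they are a description with no test. Of all 13197 genes, 4.3% were likewise higher without overlap in both deletions. In such bulk samples fewer cells of a type and less RNA per cell cannot be told apart. The macrophage gene Emr1 also lay higher without overlap, at 556 to 588 CPM in PARP1CKO against 495 to 534 in its controls, and at 594 to 630 CPM in PARP2CKO against 524 to 531. The 9 listed macrophage markers summed to 21492 to 23487 CPM in PARP1CKO against 20839 to 21533 in its controls, which overlap. In PARP2CKO the sum was 23923 to 25228 CPM against 21771 to 22475, which do not. Most of each macrophage sum was the 1 gene Ctsb (13402 to 16833 CPM over all libraries). By log2 difference, 7 of these markers were higher and 2 lower with PARP1 deletion, and 8 higher and 1 lower with PARP2 deletion. The 8 monocyte markers were lower in sum without overlap in both deletions, at 996 to 1022 CPM in PARP1CKO against 1062 to 1178 and at 962 to 975 CPM in PARP2CKO against 985 to 1001. Most of each monocyte sum was S100a4 (775 to 973 CPM). With PARP1 deletion the sums of 2 further lists were higher without overlap, erythroid (6.88 to 8.87 CPM against 5.43 to 5.50) and osteoclast (144 to 150 CPM against 135 to 143). That of the immature myeloid list was lower (990.0 to 1024 CPM against 1031 to 1087). Most of the osteoclast sum was Nfatc1 (70.6 and 74.2 CPM against 69.2 and 73.4) and Mmp9 (46.9 and 56.2 CPM against 46.7 and 48.6), the latter also a neutrophil marker. Most of the immature myeloid sum was Itgam (881 and 896 CPM against 910 and 956). With PARP2 deletion 3 further sums were lower without overlap, those of the neutrophil (2888 to 3286 CPM against 3335 to 3561), basophil and mast cell (25.4 to 25.8 CPM against 31.8 to 35.1) and T and NK cell lists (3.34 to 4.08 CPM against 4.50 to 5.02). No gene of these lists was at 0 in all libraries, and their part in the Folr2 difference was not tested. The exons of Folr2 overlap those of the opposite-strand gene Gm10602, and whether counting used the strand is not given in the sources used here, so their reads cannot be told apart.

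**Figure D1:**
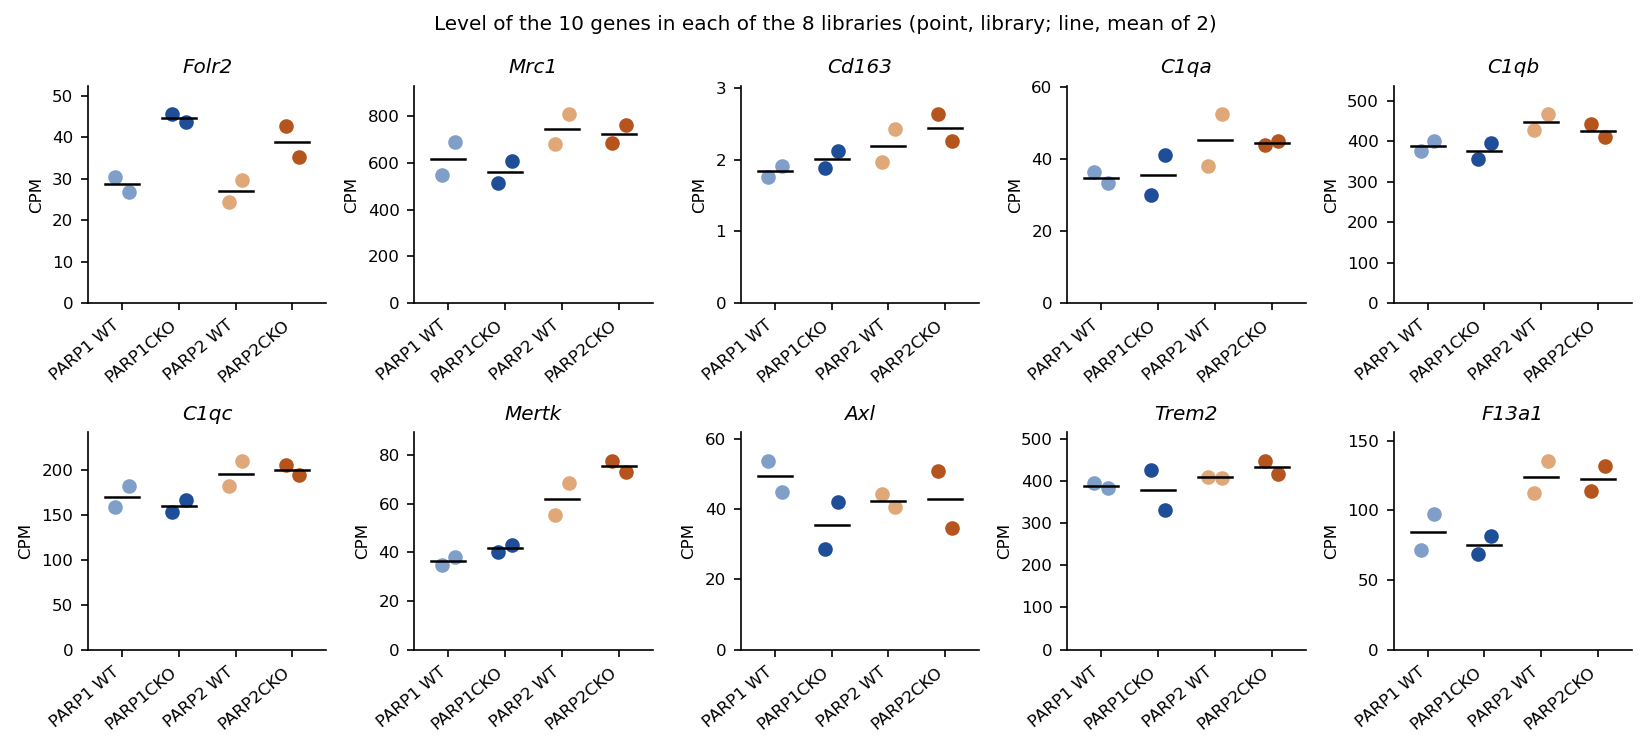
Level of each of the 10 genes in the 8 libraries, in CPM from 0; points are libraries and lines the mean of the 2 libraries of a group. Folr2 is higher in the CKO libraries of both deletions, while Mertk is lowest in PARP1 WT (36.5 CPM on average) and highest in PARP2CKO (75.4 CPM).

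The receptors that mark resident macrophages beside Folr2 overlapped between CKO and WT libraries with each deletion. Mrc1 (chr2:14229392-14332057, plus strand) gave 549 and 690 CPM in the PARP1 WT libraries, 516 and 608 in the PARP1CKO libraries, 683 and 809 in the PARP2 WT libraries and 686 and 762 in the PARP2CKO libraries. The groups of each deletion overlapped, with a log2 difference of -0.14 ± 0.12 (SE) for PARP1 (adjusted p = 0.689 in edgeR's quasi-likelihood test, Benjamini-Hochberg) and -0.04 ± 0.12 for PARP2 (adjusted p = 0.989). Cd163 (chr6:124304656-124330527, plus strand) was near the lower end of what was measured, with 68 to 157 counts in a library. It gave 1.76 and 1.91 CPM in the PARP1 WT libraries, 1.88 and 2.12 in the PARP1CKO libraries, 1.97 and 2.42 in the PARP2 WT libraries and 2.63 and 2.26 in the PARP2CKO libraries. Its log2 difference was 0.12 for PARP1 (95% interval -0.29 to 0.53) and 0.16 for PARP2 (-0.22 to 0.54).

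The 3 C1q genes, which lie side by side on chromosome 4 (C1qb at 136880129-136886187, C1qc at 136889804-136893065 and C1qa at 136895917-136898803, all on the minus strand), overlapped with their controls in each deletion. C1qb gave 376 and 400 CPM in the PARP1 WT libraries, 358 and 396 in the PARP1CKO libraries, 429 and 467 in the PARP2 WT libraries and 443 and 410 in the PARP2CKO libraries. C1qc gave 158 and 182 CPM in the PARP1 WT libraries, 153 and 166 in the PARP1CKO libraries, 181 and 210 in the PARP2 WT libraries and 205 and 194 in the PARP2CKO libraries. In neither gene did a CKO group lie wholly above or below its controls. C1qa, the least abundant chain, gave 36.3 and 33.4 CPM in the PARP1 WT libraries, 29.9 and 41.1 in the PARP1CKO libraries, 38.0 and 52.4 in the PARP2 WT libraries and 44.0 and 45.1 in the PARP2CKO libraries. For C1qb, the most precisely measured of the 10 genes, the 95% interval of the log2 difference ran from -0.20 to 0.11 with PARP1 deletion and from -0.22 to 0.08 with PARP2 deletion. That of C1qc ran from -0.28 to 0.10 and from -0.16 to 0.22, and that of C1qa from -0.35 to 0.40 and from -0.38 to 0.34. The chains also kept nearly fixed proportions, C1qb taking 63.1% to 66.2% of the summed C1q CPM of a library, C1qc 27.5% to 29.9% and C1qa 5.43% to 7.19%.

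Among the TAM receptors, Mertk was higher and Axl lower in the PARP1CKO libraries without overlap, and neither passed the test. Mertk (chr2:128698956-128802894, plus strand) gave 35.0 and 37.9 CPM in the PARP1 WT libraries, 40.1 and 43.2 in the PARP1CKO libraries, 55.3 and 68.4 in the PARP2 WT libraries and 77.7 and 73.0 in the PARP2CKO libraries. The 4 groups therefore stood in that order with no overlap between any of them. Its log2 difference was 0.19 ± 0.10 (SE) with PARP1 deletion (adjusted p = 0.486, edgeR's quasi-likelihood test) and 0.29 ± 0.09 with PARP2 deletion (unadjusted p = 0.0117, adjusted p = 0.888), the latter between 0.14 and 0.45 when any 1 library was left out. Axl (chr7:25757273-25788705, minus strand) gave 53.8 and 45.0 CPM in the PARP1 WT libraries, 28.6 and 42.2 in the PARP1CKO libraries, 44.3 and 40.6 in the PARP2 WT libraries and 51.0 and 34.8 in the PARP2CKO libraries. Its CKO replicates lay far apart, the higher being 1.47 times the lower in both groups. The log2 difference of Axl was -0.48 ± 0.20 with PARP1 deletion (unadjusted p = 0.0422, adjusted p = 0.425) and 0.02 ± 0.20 with PARP2 deletion (adjusted p = 0.998). The PARP1 value lay between -0.78 and -0.23 when any 1 library was left out. Axl CPM exceeded Mertk CPM in both PARP1 WT libraries (ratios 1.54 and 1.19) and in no other, the ratio being 0.714 and 0.976 for PARP1CKO, 0.800 and 0.593 for PARP2 WT, and 0.656 and 0.476 for PARP2CKO.

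**Figure D2:**
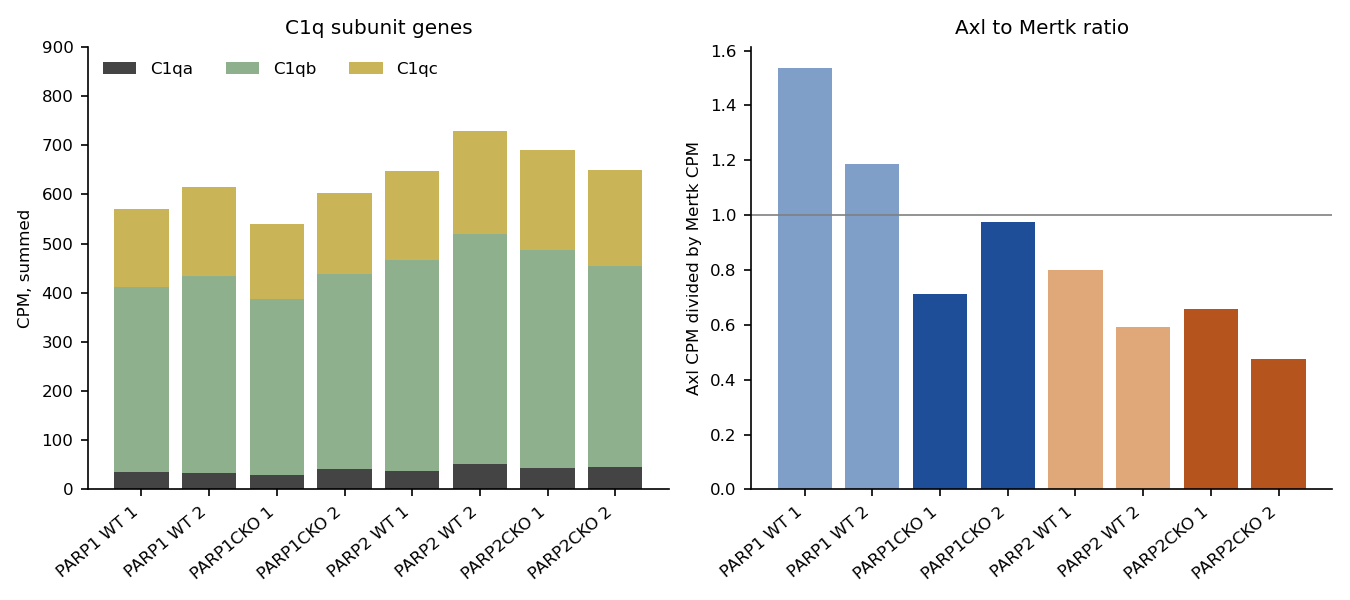
Left, summed CPM of the C1q subunit genes in each library, split by gene; right, Axl CPM divided by Mertk CPM in each library, with a line at 1. C1qb makes up 63.1% to 66.2% of every bar, and the ratio is above 1 only in the PARP1 WT libraries.

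Trem2 (chr17:48346401-48354147, plus strand) gave 395 and 383 CPM in the PARP1 WT libraries, 425 and 330 in the PARP1CKO libraries, 410 and 408 in the PARP2 WT libraries and 448 and 417 in the PARP2CKO libraries. Both PARP2CKO libraries were above both PARP2 WT libraries, by 0.08 on the log2 scale (95% interval -0.14 to 0.30), whereas the PARP1CKO libraries lay on either side of their controls (-0.04, interval -0.26 to 0.18). F13a1 (chr13:36867178-37050244, minus strand) gave 71.9 and 97.4 CPM in the PARP1 WT libraries, 68.4 and 81.9 in the PARP1CKO libraries, 112 and 136 in the PARP2 WT libraries and 114 and 132 in the PARP2CKO libraries. It overlapped between the groups of each deletion, with log2 differences of -0.18 (interval -0.52 to 0.17) and -0.01 (-0.35 to 0.32). Exons of F13a1 also overlap an opposite-strand gene, Gm30489, with the same limit as for Folr2.

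Counted together, 0 of the 9 genes other than Folr2 passed an adjusted p of 0.05 with PARP1 deletion in edgeR's quasi-likelihood test, where 0.106% of all 13197 genes passed. Axl alone had an unadjusted p under 0.05, as did 11.3% of all genes, and edgeR's likelihood-ratio test (1.11% of all genes) and DESeq2 (0.754%) also called 0. Their log2 differences had a median of -0.04, against 0.01 over all genes, and 2 of the 9 did not overlap between groups (Mertk higher, Axl lower), against 41.2% of all genes. With PARP2 deletion the quasi-likelihood test again called 0 of 9 (0.053% of all genes), Mertk alone had an unadjusted p under 0.05 (4.83% of all genes), and the likelihood-ratio test (0.296%) and DESeq2 (0.205%) called 0. The median was 0.02, and 2 of 9 (Mertk and Trem2, both higher) did not overlap, against 37.2% of all genes. The difference between the effects of the deletions was tested as an interaction, and 0 of 9 passed by quasi-likelihood (0.0152% of all genes), likelihood-ratio test (0.546%) or DESeq2 (0.362%), 0 of 9 also at an unadjusted quasi-likelihood p under 0.05 (7.69% of all genes). It was largest for Axl, at 0.50 ± 0.28 (SE) on the log2 scale (adjusted p = 0.712). The Axl value lay between 0.19 and 0.80 when any 1 library was left out. An exact permutation test of 2 libraries against 2 cannot give a two-sided p below 0.333, so single genes have no test free of the shared model.

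**Figure D3:**
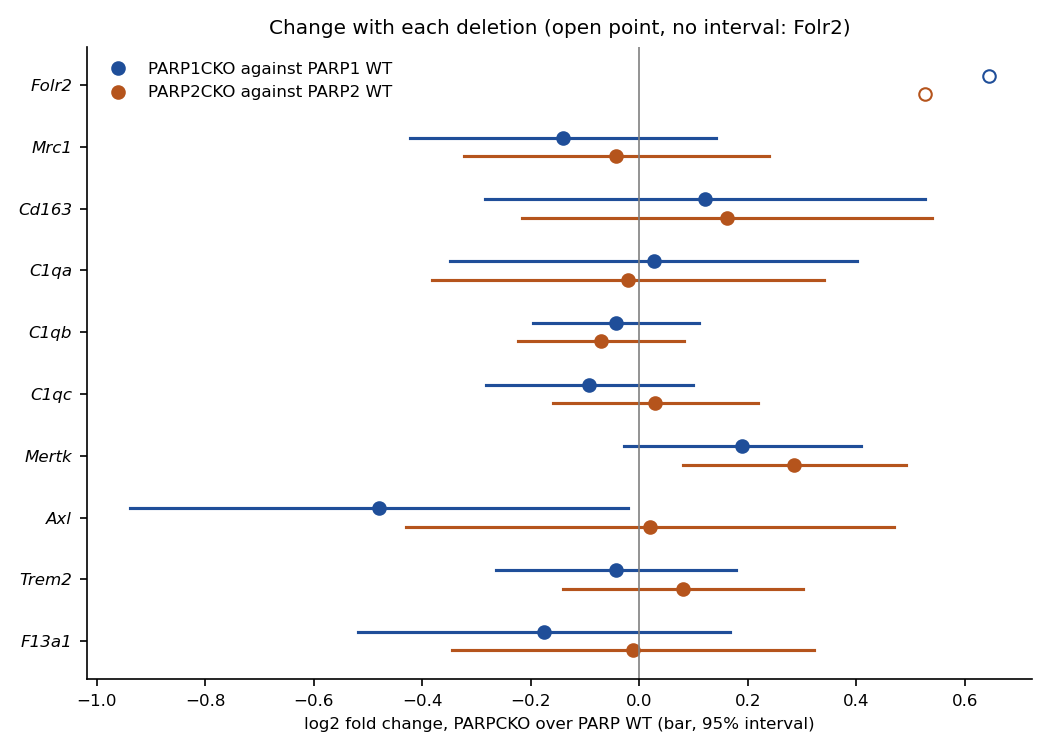
log2 fold change of each gene in PARP1CKO over PARP1 WT and in PARP2CKO over PARP2 WT; bars are 95% intervals from edgeR's quasi-likelihood fit, and Folr2, whose values helped choose the genes, has an open point and no interval. Folr2 stands at 0.64 and 0.53, and the intervals of the other genes include 0 except Axl with PARP1 deletion and Mertk with PARP2 deletion.

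Calls among these genes came from comparing the mice that carry the floxed PARP2 allele with those that carry the floxed PARP1 allele, at equal Cre status. Without Cre, Mertk was 1.69-fold higher in PARP2 WT than in PARP1 WT (log2 difference 0.76 ± 0.09, SE, adjusted p = 0.00529 in edgeR's quasi-likelihood test). This was the 1 call among the 9 genes, where 3.16% of all genes passed and 1.92% passed as higher. It was lost without PARP1 WT replicate 1 (0.70, adjusted p = 0.0590). F13a1 was 1.46-fold higher (0.55 ± 0.15) at an adjusted p of 0.0963, and it passed with the likelihood-ratio test (0.00921) and without PARP1 WT replicate 2 (log2 difference 0.78, adjusted p = 0.0416). Without PARP1 WT replicate 1 its difference was 0.35 (adjusted p = 0.371), and without PARP2 WT replicate 2 it was 0.40 (adjusted p = 0.392). Calls among the 9 numbered 2 by the likelihood-ratio test (6.9% of all genes), and also 2 by DESeq2 (4.43%). C1qa (0.38), Mrc1 (0.27), Cd163 (0.25), C1qb (0.21), C1qc (0.20) and Trem2 (0.07) were also above 0, none past the adjusted threshold by quasi-likelihood, and Axl was below 0 (-0.22). Of these C1qb passed by DESeq2 (adjusted p = 0.0499), and Mrc1 with the replicate number as a block (adjusted p = 0.0386). When any 1 library was left out, C1qa lay between 0.13 and 0.59, Mrc1 between 0.11 and 0.44 and Cd163 between 0.097 and 0.40. C1qb then lay between 0.14 and 0.27, C1qc between 0.091 and 0.30, Trem2 between 0.048 and 0.094 and Axl between -0.34 and -0.085. In all, 8 of 9 log2 differences were above 0, as were 50.4% of all genes, with a median of 0.25 against 0.0013 over all genes. That median was 0.13 without PARP2 WT replicate 2, 0.16 without PARP1 WT replicate 1 and 0.39 without PARP2 WT replicate 1. In 6 of the 9 (C1qa, C1qb, Mertk, F13a1, Cd163 and Trem2) both PARP2 WT libraries were above both PARP1 WT libraries, against 26.7% of all genes. In Axl both were below (44.3 and 40.6 CPM against 53.8 and 45.0), as in 25.2% of all genes. Folr2 had a difference of -0.08, with overlap, and between -0.23 and 0.060 when any 1 library was left out.

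The comparison was then made in the Cre-carrying libraries, which share no library with the first, and it was added after the data were seen. PARP2CKO exceeded PARP1CKO in 9 of 9 genes other than Folr2, against 49.1% of all genes, with a median log2 difference of 0.32 against -0.0031, and of 0.49 without PARP1CKO replicate 2. The quasi-likelihood test called 3 of the 9, where 10.3% of all genes passed and 4.99% passed as higher. The likelihood-ratio test called 4 (14.4% of all genes) and DESeq2 3 (9.82%). Mertk was 1.81-fold higher (0.86 ± 0.09, adjusted p = 0.00139) and remained called without any 1 of the 4 libraries (adjusted p at most 0.0192). F13a1 was 1.64-fold higher (0.71 ± 0.15, adjusted p = 0.0214), but the call was lost without PARP1CKO replicate 1 (adjusted p = 0.0669), PARP2CKO replicate 1 (0.0812) or PARP2CKO replicate 2 (0.09995). C1qc was 1.25-fold higher (0.32 ± 0.08, adjusted p = 0.0433), and its call was lost without any 1 of the 4 libraries (adjusted p between 0.0846 and 0.225) and with library size alone as the scaling (0.0763). Mrc1 followed at 1.29-fold (0.37 ± 0.12, adjusted p = 0.0989), and Trem2 (0.20, adjusted p = 0.239) passed under 1 of the alternatives run, without PARP1CKO replicate 1 (0.39, adjusted p = 0.00571), while without PARP1CKO replicate 2 its difference was 0.026 (adjusted p = 0.873). In 7 of 9 genes, Axl and Trem2 excepted, the groups did not overlap, against 28% of all genes. Folr2 went the other way, at -0.20, and lay between -0.34 and -0.067 when any 1 library was left out.

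**Figure D4:**
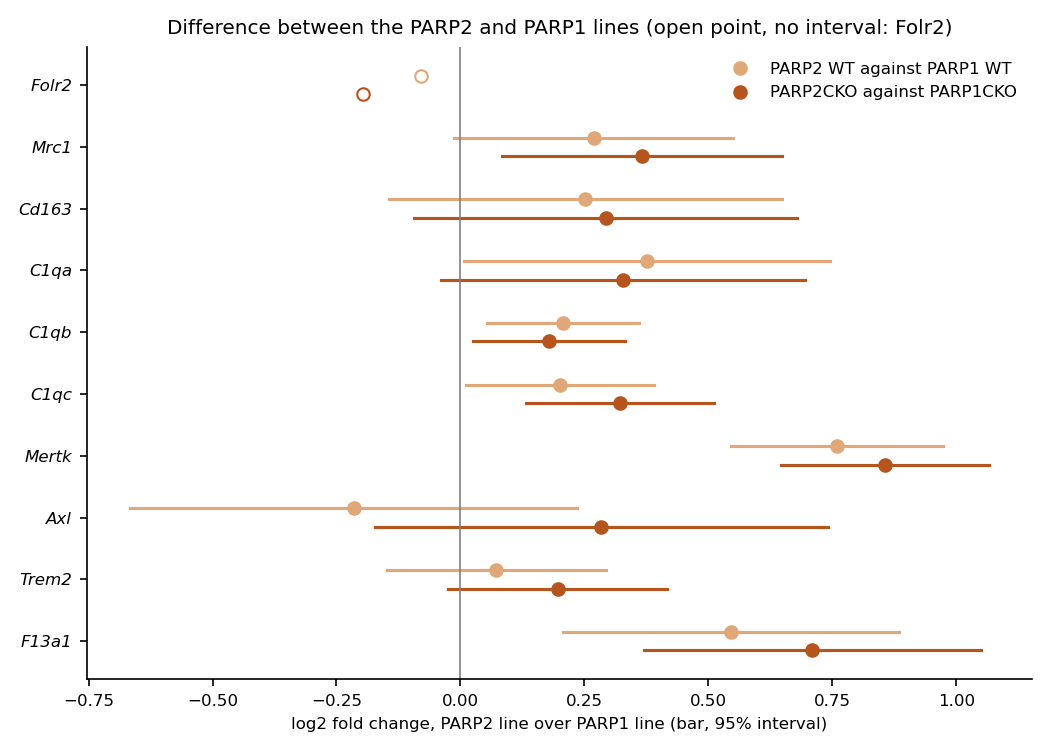
log2 fold change of each gene in PARP2 WT over PARP1 WT and in PARP2CKO over PARP1CKO; bars are 95% intervals from edgeR's quasi-likelihood fit, and Folr2 has an open point and no interval. Mertk (0.76 and 0.86) and F13a1 (0.55 and 0.71) stand farthest to the right, and Axl changes side (-0.22 and 0.28).

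The floxed gene and the litter differ together between these mice and cannot be told apart, and the deleted gene differs as well among the CKO libraries. Markers of other cells also differed between them. The 8 B cell markers summed to 29.6 to 34.8 CPM in PARP1 WT against 9.48 to 11.5 in PARP2 WT, and to 31.0 to 43.3 CPM in PARP1CKO against 8.18 to 11.1 in PARP2CKO. The 8 basophil and mast cell markers summed to between 55.1 and 60.1 CPM in the PARP1 libraries and between 25.4 and 35.1 CPM in the PARP2 libraries. The 8 granulocyte progenitor markers went the other way, from between 293 and 346 CPM to between 407 and 457 CPM. The 8 erythroid markers summed to between 5.43 and 8.87 CPM in the PARP1 libraries and between 3.10 and 3.82 CPM in the PARP2 libraries. The 11 neutrophil markers overlapped in sum (2816 to 3550 CPM against 2888 to 3561 CPM). Of them 2 were called lower between the WT groups (1.24% of all genes) and 4 between the CKO groups (5.34% of all genes). The macrophage markers summed to 21771 to 22475 CPM in PARP2 WT against 20839 to 21533 in PARP1 WT. Among the CKO libraries they summed to 23923 to 25228 CPM in PARP2CKO against 21492 to 23487 in PARP1CKO. The sum was higher without overlap in each pair, but most of it was the 1 gene Ctsb (13402 to 16833 CPM). By log2 difference, 7 were higher and 2 lower between the WT groups, and 8 higher and 1 lower between the CKO groups. The immature myeloid markers were likewise higher in sum, at 1092 to 1099 CPM against 1031 to 1087 and at 1062 to 1151 CPM against 990.0 to 1024. Most of each sum was Itgam (881 to 1035 CPM). Of the 4 tested, 3 were higher and 1 lower between the WT groups, and 2 higher and 2 lower between the CKO groups. The 8 monocyte markers were lower in sum without overlap in each pair. The sums were 985 to 1001 CPM against 1062 to 1178 and 962 to 975 CPM against 996 to 1022. Most of each sum was S100a4 (775 to 973 CPM). By log2 difference, 3 were higher and 5 lower between the WT groups, and 5 higher and 3 lower between the CKO groups. T and NK cell markers were lower without overlap among the CKO libraries only, at 3.34 to 4.08 CPM against 4.56 to 5.99. The osteoclast markers overlapped in sum in each pair. Of the 7 tested 1 was called higher and 1 lower between the WT groups (1.92% and 1.24% of all genes). Between the CKO groups 2 were called higher and 1 lower (4.99% and 5.34% of all genes). None of these lists had a gene at 0 in all libraries, and their part in the differences of Mertk, F13a1 and C1qc was not tested.

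Genes of the same pathways were read from 8 lists of ligands, partners and related proteins, 118 of which were tested beside the 10 genes. The lists were chosen with earlier results of these data known, so their counts of calls are a description. With PARP1 deletion 1 of the 118 (0.847%) passed edgeR's quasi-likelihood test, against 0.106% of all genes, and it was Siglec1 of the tissue macrophage identity list, the sialic acid receptor CD169. Siglec1 gave 124 and 142 CPM in the PARP1CKO libraries against 70.0 and 76.7 in their controls, a log2 difference of 0.86 ± 0.09 (SE, adjusted p = 0.0134). The call was lost without PARP1 WT replicate 1 or replicate 2 (adjusted p at most 0.0916). The PARP2CKO libraries gave 113 and 123 CPM against 96.8 and 110, a difference of 0.19 (adjusted p = 0.954). The difference between the deletions did not pass by quasi-likelihood (-0.66, adjusted p = 0.175) and passed by the likelihood-ratio test (adjusted p = 0.000282). With PARP1 deletion 26 of the 118 had an unadjusted p under 0.05 (11.3% of all genes). The likelihood-ratio test (1.11% of all genes) and DESeq2 (0.754%) called 4 each. Those of the likelihood-ratio test were Siglec1 and Ninj1, both higher (0.86 and 0.25), and Cd36 and Ms4a7, both lower (-0.42 and -0.23). With PARP2 deletion 0 of the 118 passed by quasi-likelihood (0.053% of all genes), and 18 had an unadjusted p under 0.05 (4.83% of all genes). The likelihood-ratio test (0.296%) and DESeq2 (0.205%) called 1 each, which for the likelihood-ratio test was Wfdc17, lower (-1.76). For the difference of effects 0 of the 118 passed by quasi-likelihood (0.0152% of all genes), and 15 had an unadjusted p under 0.05 (7.69% of all genes). The likelihood-ratio test (0.546%) and DESeq2 (0.362%) called 3 each, which for the likelihood-ratio test were Siglec1 (-0.66), Cd36 (0.63) and Ms4a7 (0.42). The TAM ligand genes did not pass, Gas6 at -0.36 and -0.12 and Pros1, which encodes protein S, at 0.08 and 0.04 with PARP1 and PARP2 deletion (adjusted p between 0.508 and 0.977). Of the folate receptor and transport list, 0 of 6 tested genes were called by quasi-likelihood or likelihood-ratio test in either deletion.

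Between PARP2 WT and PARP1 WT 20 of the 118 list genes passed (16.9%, 16 higher and 4 lower), and between PARP2CKO and PARP1CKO 36 passed (30.5%, 31 higher and 5 lower). Over all genes 3.16% passed in the first comparison (1.92% higher and 1.24% lower) and 10.3% in the second (4.99% higher and 5.34% lower). The counts of the single lists are to be read against these shares. The lists were chosen with earlier results of these data known, so the counts are a description and no list was tested as a whole. The median log2 difference of the lists lay between -0.08 (folate) and 0.22 (tissue macrophage identity) in the first comparison, where it was 0.0013 over all genes, leaving aside the 2 tested genes of the mannose receptor family. In the second it lay between -0.0022 (folate) and 0.25 (coagulation), where it was -0.0031 over all genes. The first count was 3 to 14 and the second 9 to 40 when any 1 library was left out, lowest without PARP1 WT replicate 1 and without PARP2CKO replicate 1. The calls over all genes moved with them, from 417 to between 85 and 319 in the first comparison and from 1363 to between 234 and 1458 in the second. Beside Mertk, its ligand gene Gas6 gave 559 and 649 CPM in the PARP2 WT libraries against 197 and 310 in the PARP1 WT libraries (log2 difference 1.25, adjusted p = 0.0128 in edgeR's quasi-likelihood test), a call lost without PARP2 WT replicate 2. Among the CKO libraries Gas6 gave 563 and 550 CPM against 172 and 225 (1.49, adjusted p = 0.00340), called without any 1 of them. Pros1, the gene of the other TAM ligand, was lower in PARP2CKO than in PARP1CKO (-0.35, adjusted p = 0.0176, lost without PARP1CKO replicate 2, PARP2CKO replicate 1 or PARP2CKO replicate 2). Cd36, a scavenger receptor of the same list, gave 2309 and 2540 CPM in PARP2CKO against 1271 and 1133 in PARP1CKO (1.01, adjusted p = 0.000334). The TAM and apoptotic cell uptake list had 3 of 18 genes higher and 1 lower among the WT libraries and 5 higher and 1 lower among the CKO libraries.

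Among complement genes other than C1q, 1 of 20 was higher and 1 lower between the WT libraries, and 6 higher and 1 lower between the CKO libraries. Cfp, which encodes the alternative pathway stabilizer properdin, gave 341 and 328 CPM in PARP2CKO against 256 and 262 in PARP1CKO (log2 difference 0.37, adjusted p = 0.00333, edgeR's quasi-likelihood test). The TREM2 list had 2 of 20 genes higher and 1 lower between the WT libraries, and 8 higher and 0 lower between the CKO libraries, and 9 higher and 2 lower there by the likelihood-ratio test. Apoe, a lipoprotein gene of that list, gave 820 and 716 CPM in PARP2CKO against 376 and 457 in PARP1CKO (0.88, adjusted p = 0.00275). The tissue macrophage identity list had 7 of 32 higher and 1 lower between the WT libraries and 7 higher and 3 lower between the CKO libraries. Of the coagulation and transglutaminase list, 2 of 15 were higher between the WT libraries and 5 between the CKO libraries. Its fibronectin gene Fn1 gave 8.30 and 8.16 CPM in PARP2CKO against 4.14 and 4.31 in PARP1CKO (0.96, adjusted p = 0.00140). The haem list had 1 of 12 higher and 1 lower between the WT libraries and 2 higher and 1 lower between the CKO libraries, with the biliverdin reductase gene Blvra at 124 and 122 CPM in PARP2CKO against 75.3 and 75.8 in PARP1CKO (0.71, adjusted p = 0.000966). The mannose receptor family list had 1 of 2 tested genes higher in each comparison, Ly75 between the WT libraries and Pla2r1 between the CKO libraries. The call of Ly75 was lost without PARP1 WT replicate 1 or 2 or PARP2 WT replicate 1, and that of Pla2r1 without PARP1CKO replicate 2 or PARP2CKO replicate 1 or 2. Those named above for Cfp, Cd36, Apoe, Fn1 and Blvra held without any 1 of their 4 libraries.

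**Figure D5:**
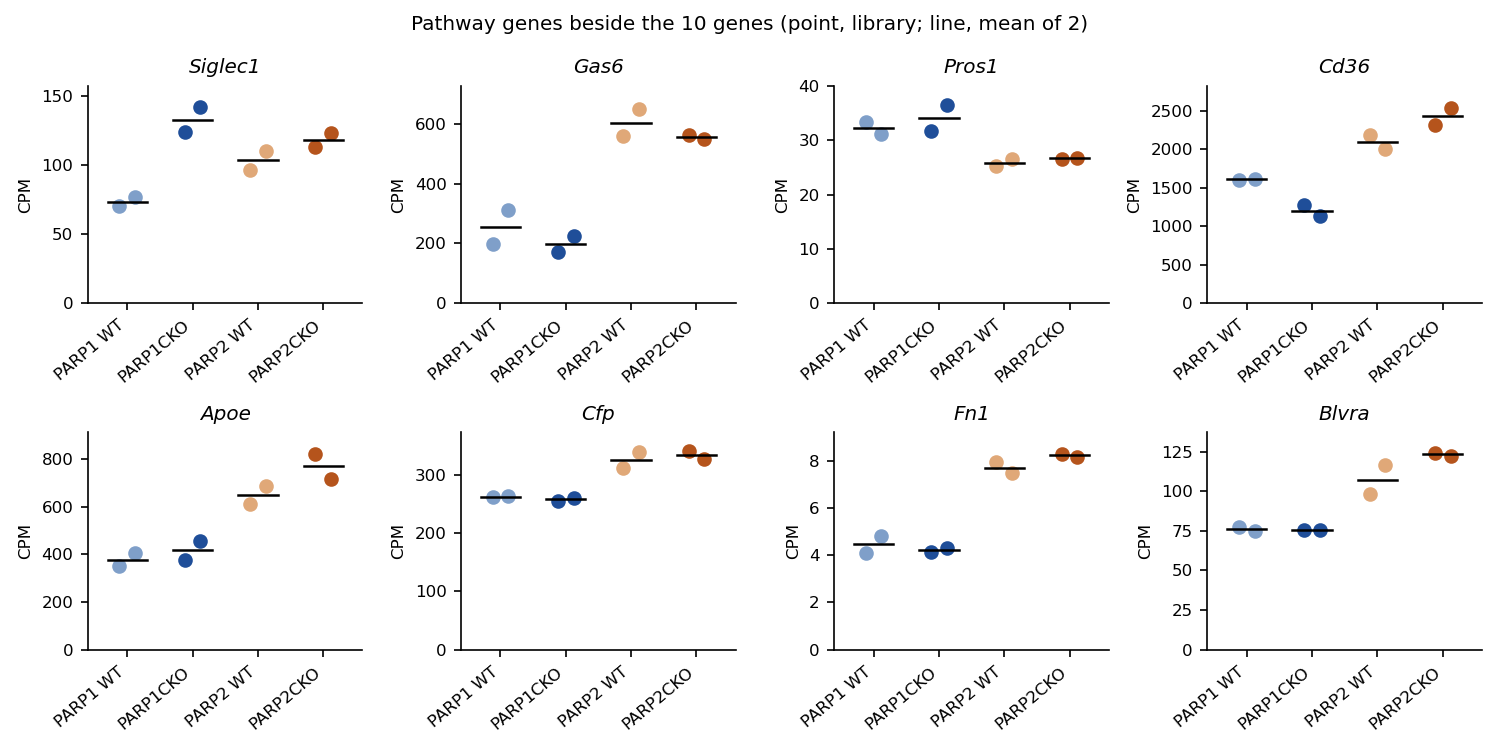
Level of 8 pathway genes in the 8 libraries, in CPM from 0; points are libraries and lines the mean of the 2 libraries of a group. Siglec1 is higher in PARP1CKO (124 and 142 CPM) than in PARP1 WT (70.0 and 76.7 CPM), while Gas6, Cd36, Apoe, Cfp, Fn1 and Blvra are higher in both PARP2 groups than in both PARP1 groups.

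The genes whose levels ran most like those of Folr2 were sought over the 8 libraries among 11446 genes with a mean of at least 1 CPM, as a description. They were Tmcc2 (Pearson's r = 0.99 on log2 CPM), Tor4a (0.97), Usp19 (0.94), Agrn (0.94) and Pqlc1 (0.93). The libraries share the 4 groups, and 11446 genes were ranked, so high values are found in any such search. By Spearman's rank correlation 2 of the first 5 genes were shared, Tmcc2 and Tor4a. The other 9 genes were not among them, their r with Folr2 lying between -0.42 for Mrc1 and 0.30 for Cd163.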

How the data were processed

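Members and gene lists were chosen with earlier results of these data known. Single-end reads of stranded total RNA libraries were processed by the authors, who used fastq-mcf for trimming, TopHat 2.0.12 against mm10 for mapping, Picard 1.127 to mark duplicates and featureCounts to count. The deposited values are raw counts per gene. The annotation, the strand setting and the use of marked reads are not given in the sources used here.

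From these counts, 8 libraries in 4 groups were fitted together with a mean for each group in edgeR 4.0.16 (R 4.3.3), using filterByExpr, TMM scaling and the quasi-likelihood test, with p-values adjusted by Benjamini-Hochberg over 13197 genes and a threshold of 0.05. Errors are standard errors of the log2 fold change, and intervals are 95%. Replicates differed by more than sampling noise (chi-square per gene between 8.56 and 12.9). Named genes were all members, Parp1 and Parp2, label markers, list genes called in a comparison or among the 3 most abundant of a list, and the 5 most like Folr2. DESeq2 1.42.0, the likelihood-ratio test, other scalings and filters, a replicate block, the 4 libraries of a comparison alone and leaving out each library were alternatives. Log2 CPM used a prior count of 2. The test was also run on simulated tables, and no result given here rests on them.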

Additional observations from a re-analysis of the deposited data

How the results depend on the processing

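Of 484 values under alternatives other than leaving out 1 library, 460 were counted as unchanged. These kept their direction and side of the threshold, stayed within the spread between libraries or, for counts of calls, stayed near the main count. Many of the 460 were differences uncalled both in the main fit and in the alternative. With library size alone as the scaling, the log2 difference of Axl with PARP2 deletion was -0.0085 instead of 0.02. Between PARP2 WT and PARP1 WT, 2 of the 9 genes were called by DESeq2 (Mertk and C1qb), by the likelihood-ratio test and without a filter on low counts (Mertk and F13a1 in both). With the replicate number as a block, 3 were called there (Mertk, F13a1 and Mrc1), and between PARP2CKO and PARP1CKO 4 instead of 3 (Mrc1 added). The block changed no other member's call. The labels tie the numbers to nothing shared, and correlations of the differences between replicates, from -0.13 to 0.15 between groups, show no pairing. Among the pathway lists the likelihood-ratio test called 4 genes with PARP1 deletion, 1 with PARP2 deletion, 3 for the difference of effects, 36 between the WT groups and 47 between the CKO groups (all genes 1.11%, 0.296%, 0.546%, 6.9% and 14.4%). The causes of these differences were not tested.

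When any 1 library was left out, the 9 genes had 0 to 2 calls between the WT groups and 1 to 2 between the CKO groups. The lists had 0 to 2 calls with PARP1 deletion, 0 to 2 with PARP2 deletion, 0 to 1 for the difference of effects, 3 to 14 between the WT groups and 9 to 40 between the CKO groups. All genes had 1 to 34, 6 to 19, 1 to 16, 85 to 319 and 234 to 1458 calls in the same order. The median of the 9 genes was -0.15 to 0.0069 with PARP1 deletion, -0.072 to 0.13 with PARP2 deletion, -0.019 to 0.23 for the difference, 0.13 to 0.39 between the WT groups and 0.25 to 0.49 between the CKO groups. A lone library was then assumed to vary like the other groups, and fewer samples entered. Uncalled log2 differences crossed 0 in several genes. With PARP1 deletion these were C1qa (-0.22 to 0.24), C1qb (-0.12 to 0.028), C1qc (-0.19 to 0.0069), F13a1 (-0.38 to 0.060), Mrc1 (-0.30 to 0.030) and Trem2 (-0.24 to 0.13). With PARP2 deletion they were Axl (-0.29 to 0.27), C1qa (-0.24 to 0.23), C1qc (-0.072 to 0.14), F13a1 (-0.14 to 0.13) and Mrc1 (-0.16 to 0.086). For the difference of effects they were C1qa (-0.26 to 0.20), C1qb (-0.10 to 0.049), Cd163 (-0.10 to 0.20), F13a1 (-0.071 to 0.37), Mertk (-0.050 to 0.26), Mrc1 (-0.072 to 0.26) and Trem2 (-0.046 to 0.32), and between the CKO groups Axl (-0.023 to 0.59). Folr2, which was not tested, also crossed 0 for the difference of effects (-0.27 to 0.036) and between the WT groups (-0.23 to 0.060).

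Precision was set by 2 libraries a group more than by depth, since replicates differed by more than counting error. Cd163 alone was also shallow, with 68 to 157 counts a library.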
